A study of Mus musculus with 27 samples.

Results

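The comparison described here set C9-BACexp mice that received the Cas13d effector with crRNA-13 against C9-BACexp mice that received only the EGFP-KASH vector. It rests on 9 of the 27 libraries of the series, 6 with crRNA-13 (replicates 1, 2, 3, 4, 6 and 7) and 3 with EGFP-KASH only (replicates 2, 3 and 5), chosen by their labels alone. C9-BACexp mice are C57BL/6J mice that carry a bacterial artificial chromosome with the whole human C9ORF72 gene and its hexanucleotide repeat expansion, and they keep their own mouse C9orf72. All 9 mice had vector injected into the motor cortex, and all carried the PHP.eB-EGFP-KASH vector, in which the broadly active CAG promoter drives a green fluorescent protein anchored in the nuclear envelope. Nuclei bearing it were sorted by flow cytometry before RNA-seq. The crRNA-13 mice also carried a PHP.eB vector with RfxCas13d-N2V8, a high-fidelity form of the RNA-cutting enzyme, under CAG, and crRNA-13 under the U6 promoter. The EGFP-KASH only mice had neither effector nor crRNA, so the effects of the added vector, of the enzyme and of the guide cannot be told apart in this comparison. The sort selected the second vector and not the effector, and it admitted any transduced cell type. The age, dose and time of the EGFP-KASH only mice are not given in the sources used here. The 6 C9-BACexp libraries with a non-targeted crRNA (NTG), and the 7 libraries of C57BL/6J mice without the transgene that received crRNA-13 (3) or EGFP-KASH only (4), are used below for reference. The labels name RfxCas13d as the effector of the NTG mice, where the study's text names RfxCas13d-N2V8.

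Cas13d is a bacterial enzyme that binds a short crRNA, finds RNA that pairs with it and cuts that RNA. Human C9ORF72 is transcribed into variants that differ in their first exon: V1 and V3 start at exon 1a and carry the repeat in their first intron, whereas V2 starts downstream of the repeat and does not. crRNA-13 was designed against exon 1a. C9ORF72 protein works in a complex with SMCR8 and WDR41 in autophagy and membrane traffic, and the repeat expansion is the most frequent known inherited cause of amyotrophic lateral sclerosis and frontotemporal dementia.

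A second set of genes runs through the results, the interferon-stimulated genes. Foreign or misplaced nucleic acid is detected by sensors such as the helicases RIG-I and MDA5, cells then release interferons, and interferons act through transcription factors to raise a large set of antiviral and antigen-presentation genes. These factors bind short elements near the start of these genes, among them the interferon-stimulated response element, whose core repeats the letters GAAA.

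Among the tested genes, 0.62% were called higher with crRNA-13 in C9-BACexp and 0.335% in C57BL/6J, and 9 were called higher in both. The p-values were adjusted over 5 comparisons together in C9-BACexp and within the comparison in C57BL/6J, and adjusted within the comparison C9-BACexp had 4 genes called higher and 0 of the 9. Of these 9, 4 held a match to that core (GAAA, any 2 bases, then GAAA) on either strand between 250 bases before and 50 bases after their start, where 666 of 18799 tested genes with a canonical start in the annotation did (3.54%). A match is a description of the letters and not a site of binding. The 9 genes were chosen by their response, and the search was made with that known. The 4 with a match were Gbp7, Ddx60, Nlrc5 and Iigp1. The sequences of the first 3 are shown as examples, and that of Iigp1 is not shown. Each is 30 bases of the forward strand of GRCm39, with the matched letters in capitals (TTTC, any 2 bases and TTTC is the same core on the other strand).
Gbp7, chr3:142236034-142236063: gtgtgtgcagTTTCAGTTTCagttctccat
Ddx60, distal match, chr8:62381058-62381087: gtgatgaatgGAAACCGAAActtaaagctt
Ddx60, proximal match, chr8:62381092-62381121: gagcagaagaGAAACCGAAActatccttca
Nlrc5, chr8:95161011-95161040: cagtggccacTTTCAGTTTCcacagagcgc
Both matches of Ddx60 lay before its start, ending 45 and 11 bases upstream of it, and those of Gbp7 and Nlrc5 began at the start or just after it. No match was found in the windows of AU020206, Oasl2, Parp10, Ifi35 and Trim12a.

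The 9 libraries held 22457876 to 31863126 counts, so that 3 counts, the limit allowed by a count of 0, equal 0.0910 to 0.135 CPM, the unit of counts scaled by library size used throughout. Defining neuronal markers were high in all 9, with Rbfox3 at 878 to 1652 CPM, Snap25 at 416 to 646 CPM and Rbfox1 at 5934 to 8902 CPM. Levels of female-specific and male-specific genes split both groups, with 1 of 3 EGFP-KASH only and 2 of 6 crRNA-13 libraries showing the male pattern, and the labels give no sex. As in any bulk sample, fewer cells of a type and less RNA per cell cannot be told apart.

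One control library stood apart. EGFP-KASH only replicate 2 had counts in 19789 of the tested genes, where the other 8 had counts in 20088 to 21381. It held 0 counts of human V2. It was the lowest of the 9 libraries in 122 of the 135 genes called higher with crRNA-13 in the model described below (90.4%, against 20.1% of all tested genes) and the highest in 48 of the 63 called lower (0.289% of tested genes, 76.2% against 17.3%). The counts, the human transcripts and the interferon-stimulated list are therefore given with and without it. For many single genes only the fit with it is given. Of the 36 named genes with a call, 2 remained called without it. Among the crRNA-13 libraries, replicate 1 had the highest summed level of oligodendrocyte markers, and replicate 2 the highest of interferon-stimulated and immediate early genes, as described below.

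V3, one of the repeat-carrying human transcripts that crRNA-13 was designed against, was at 70.5, 27.03 and 27.9 CPM in EGFP-KASH only replicates 2, 3 and 5. In the crRNA-13 libraries it ranged from 9.34 to 31.5 CPM with a median of 22.7 CPM, and 5 of the 6 lay below all 3 controls. Only replicate 1, at 31.5 CPM, lay above 2 of the controls. The mean was 20.97 ± 8.39 CPM (SD, n = 6) with crRNA-13 and 41.8 ± 24.8 CPM (SD, n = 3) with EGFP-KASH only. On the log2(CPM + 0.5) scale the difference was -0.94, which an exact two-sided permutation test did not separate from the spread between libraries (p = 0.0952, adjusted p = 0.571 over 6 quantities, where 0.0238 is the smallest p that 3 against 6 libraries allow). In the model across all genes V3 was called lower, by 0.90 on the log2 scale with an SE of 0.19 (edgeR adjusted p = 0.0295). Without EGFP-KASH only replicate 2 the permutation difference was -0.49 (p = 0.286), and the model no longer called V3 (-0.48). The call was also lost without crRNA-13 replicate 3 and without the factors.

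Like V3, the other human transcripts gave no difference that held in both tests. V1 was at 13.1, 25.1 and 25.6 CPM with EGFP-KASH only and at 14.3 to 26.4 CPM with crRNA-13, with overlapping groups and a difference of -0.11 (exact permutation p = 0.69). It was -0.41 without EGFP-KASH only replicate 2 (exact permutation p = 0.214), close to the value of V3. V2, which lacks the repeat, was at 0, 48.3 and 47.4 CPM with EGFP-KASH only and at 29.98 to 48.0 CPM with crRNA-13. The 2 controls that held V2 lay among the highest crRNA-13 libraries. The model nevertheless called V2 higher, with a fitted log2 fold change of 2.79 (edgeR adjusted p = 0.00741). The exact permutation test did not separate the groups (p = 0.619). Without EGFP-KASH only replicate 2, the library at 0, V2 was not called and its fitted log2 fold change turned to -0.17.

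The sum of the 3 transcripts differed less between libraries than its parts. It was 83.6, 100.49 and 100.83 CPM with EGFP-KASH only and 64.1 to 99.8 CPM with crRNA-13, a difference of -0.21 (exact permutation p = 0.262). It was -0.29 without EGFP-KASH only replicate 2, with all 6 crRNA-13 libraries below both controls (exact permutation p = 0.0714, the smallest that 2 against 6 libraries allow). Replicate 2, with 0 V2, also had the highest V3. The variants share most of their sequence, and so the division of reads among them is less certain than their sum. NTG libraries lay at 25.1 to 32.9 CPM for V3 and 80.6 to 103 CPM for the sum.

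**Figure D1:**
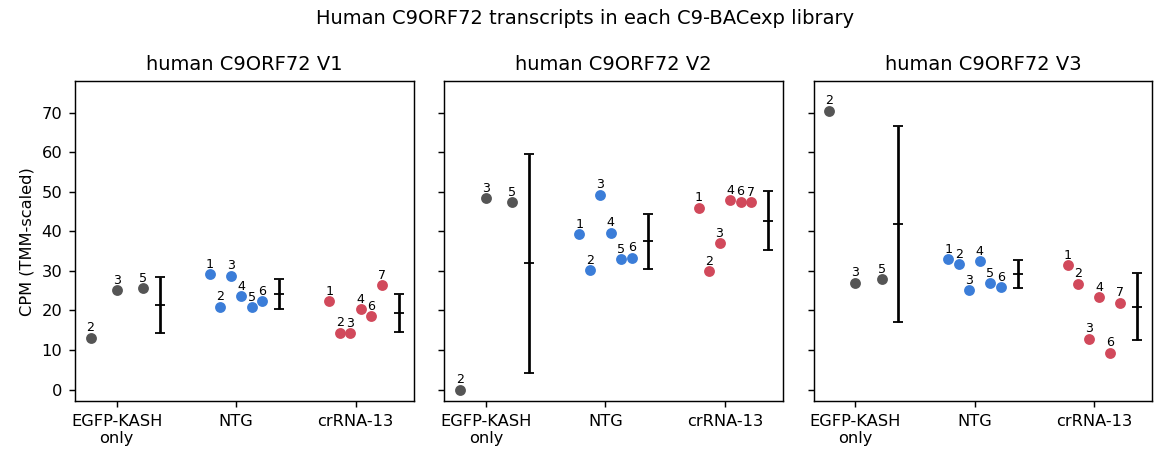
CPM of human C9ORF72 V1, V2 and V3 in each C9-BACexp library, with replicate numbers beside the points and bars for the mean ± SD of each group (EGFP-KASH only, n = 3; NTG, n = 6; crRNA-13, n = 6). In EGFP-KASH only replicate 2, V2 is at 0 CPM and V3 at 70.5 CPM, far from the other 2 controls, and 5 of 6 crRNA-13 points for V3 lie below all controls.

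The vector transcript and the mouse members of the C9ORF72 complex gave no difference larger than the spread. EGFP-KASH RNA was at 20.02, 39.1 and 43.2 CPM with EGFP-KASH only and at 24.9 to 110 CPM with crRNA-13, highest in replicate 2 (exact permutation p = 0.476). Mouse C9orf72 differed by 0.13 on the log2(CPM + 0.5) scale (exact permutation p = 0.524). Smcr8 and Wdr41, the partners of C9ORF72, had fitted log2 fold changes of 0.06 and -0.20 and were not called (edgeR adjusted p = 0.844 and 0.415).

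Across 21768 genes tested of 39338 in the table, edgeR's quasi-likelihood test with 4 factors of unwanted variation called 135 genes higher with crRNA-13 (0.62% of those tested) and 63 lower (0.289%), at a fold change over 1.2 and a Benjamini-Hochberg adjusted p under 0.05. Of these 198 genes, 56 have symbols given to predicted genes and 36 had a mean under 1 CPM. Groups that did not overlap at all were found for 25 of the 135 and 22 of the 63, where 0.854% and 0.721% of all tested genes had crRNA-13 libraries that lay wholly higher or wholly lower. These counts rest on the factors and on 1 control. Without the factors 3 genes were called, none of them higher, and 1159 genes had an unadjusted p under 0.05 against 2638 with them (7.61% of tested genes towards higher and 4.51% towards lower). With p adjusted within this comparison alone, 8 genes were called. Without EGFP-KASH only replicate 2, 57 genes were called, 7 higher and 50 lower, and 16 of them were among the 198. Of the 36 named genes with a call, 0 were called with each of the 9 libraries left out in turn, and 2 (Zfp558 and Ncan) were called without that control.

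Interferon-responsive genes made up most of the largest rises. Setting aside predicted genes and those whose mean lay under 1 CPM, the 9 mouse genes with the largest called rises included Iigp1, Oasl2, Gbp3, Ifi35, Ddx60 and Nlrc5, all known to respond to interferon. Iigp1, an immunity-related GTPase that attacks the vacuoles of intracellular parasites, was at 0, 0.072 and 0.394 CPM in the controls. In the crRNA-13 libraries it ran from 0.223 to 15.6 CPM with a median of 3.42 CPM, and replicates 6 and 7 lay within the range of the controls. It rose by 5.55 on the log2 scale (SE 1.4, edgeR adjusted p = 0.037).

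Ddx60 is a helicase that has been linked to RNA sensing by RIG-I, and it gave the clearest separation of the group. It stood at 0.12, 1.30 and 2.52 CPM in the controls. With crRNA-13 it lay between 3.41 and 30.6 CPM with a median of 7.16 CPM, so that all 6 libraries were above all 3 controls. Its fitted rise was 3.67 (SE 0.77, edgeR adjusted p = 0.0125), and the call was lost without EGFP-KASH only replicate 2. Oasl2, of the oligoadenylate synthetase family that answers double-stranded RNA, likewise did not overlap, with 0, 0.54 and 0.243 CPM against 0.543 to 19.9 CPM (median 3.40 CPM), although the lowest crRNA-13 library was barely above the highest control. It rose by 5.13 (SE 1.2, edgeR adjusted p = 0.0235).

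The guanylate-binding proteins, GTPases that coat pathogens and their vacuoles, rose in 3 called members. Gbp7 was at 0.2, 0.72 and 1.03 CPM in the controls and at 1.16 to 16.6 CPM with crRNA-13, and the groups did not overlap (log2 fold change 2.74, SE 0.73, edgeR adjusted p = 0.0484). Gbp3 was at 0, 0.396 and 0.637 CPM against 0.575 to 11.3 CPM (median 3.26 CPM), overlapping in its lowest library, crRNA-13 replicate 7, with a log2 fold change of 4.46 (edgeR adjusted p = 0.0357). Gbp11, outside both the naming rule and the list of interferon-stimulated genes and given to complete the family, was at 0, 2.30 and 1.73 CPM against 0.900 to 3.85 CPM, with overlap, and its log2 fold change of 2.67 (edgeR adjusted p = 0.0385) was 0.77 without the factors. Gbp2, Gbp4 and Gbp6 had fitted log2 fold changes of 5.84, 2.69 and 2.28 and were not called. Reads of these related genes can be assigned to one another, and the same holds for Ifit3 and Ifit3b, Oas1a and Oas1b, and the H2-Q genes.

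Ifi35, an interferon-induced protein that modulates RIG-I signalling, showed a narrower range. It was at 0, 1.33 and 0.667 CPM in the controls and at 1.03 to 3.29 CPM with crRNA-13, which overlap. Its log2 fold change of 4.06 (SE 0.82, edgeR adjusted p = 0.00873) depended on the factors and was 1.61 without them. Without EGFP-KASH only replicate 2 it was 1.16, and the call was lost. AU020206, an expressed sequence without a product name in the table, was at 0, 1.73 and 0.91 CPM against 0.659 to 9.64 CPM, also overlapping (log2 fold change 2.89, edgeR adjusted p = 0.0215). Its log2 fold change was 0.49, without a call, when EGFP-KASH only replicate 2 was left out.

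The list of interferon-stimulated genes lay almost wholly above 0. Of 48 tested members of 50, 47 had a log2 fold change above 0, 4 were called higher (Oasl2, Gbp3, Ifi35 and Gbp7) and none lower. Of all 21768 tested genes, 11968 were above 0 and 0.62% were called higher. The median was 1.68, or 1.64 with members at 0 in all controls set to their bound, against 0.03 for all tested genes. In the direction of a rise, 25 members had an unadjusted p under 0.05, where 7.61% of all tested genes did, and 4 did not overlap (Oasl2, Gbp7, Rnf213 and Stat2). Without the factors the median was 1.51 and no member was called. Without EGFP-KASH only replicate 2 it was 1.15, with 11 of 49 members at an unadjusted p under 0.05 and none called. Without crRNA-13 replicate 2 it was 1.16, with 1 member called.

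Some members without a call were chosen here after their values were seen. Rnf213, a giant ubiquitin ligase, was at 9.99, 11.4 and 13.3 CPM in the controls and at 13.5 to 192 CPM with crRNA-13. Stat2 and Irf9, transcription factors of the pathway, differed by 0.49 and 0.07 on the log2 scale, without a call.

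Summed over the tested members, the list stood at 169 to 179 CPM in the controls and at 160 to 197 CPM with NTG. With crRNA-13 it was 222, 870, 313, 350, 226 and 176 CPM in replicates 1, 2, 3, 4, 6 and 7. Replicate 7 was thus at the level of the controls, 4 libraries stood moderately above them, and replicate 2 far above. Replicate 2 also had the highest EGFP-KASH RNA, complement gene C4b at 420 CPM (the other 5 at 33.4 to 167 CPM) and astrocyte filament gene Gfap at 14.6 CPM (the other 5 at 2.75 to 6.19 CPM). Its microglia markers summed to 139 CPM, beside 137 CPM in replicate 1, 71.8 to 87.3 CPM in the other 4 and 90.4 to 105 CPM in the controls. Replicates 3 and 4, at 313 and 350 CPM in the interferon list, had microglia markers at 87.3 and 78.4 CPM. Replicate 2, highest in that list, also had the highest sum of microglia markers. The part of these differences in the interferon result was not tested.

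**Figure D2:**
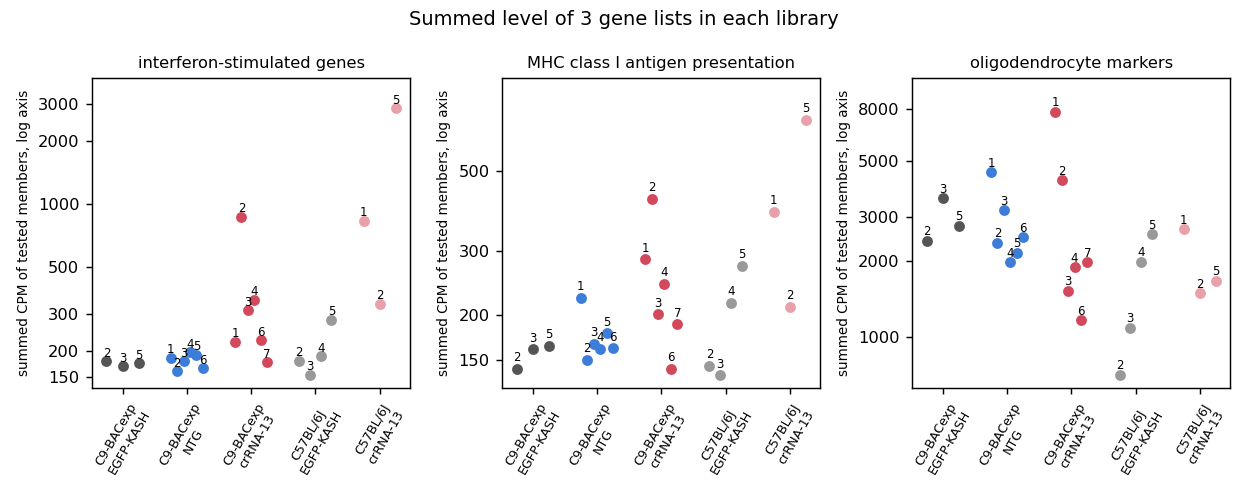
Summed CPM (log axis) of the tested members of 3 gene lists in each library of C9-BACexp and C57BL/6J mice, with replicate numbers beside the points. Interferon-stimulated genes reach 870 CPM in C9-BACexp crRNA-13 replicate 2 and 2858 CPM in C57BL/6J crRNA-13 replicate 5, while oligodendrocyte markers are highest in C9-BACexp crRNA-13 replicate 1.

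Antigen presentation by MHC class I, which shows peptides from inside the cell to cytotoxic T cells, is a second arm of the interferon response. Nlrc5, the transactivator of MHC class I genes, was the called member of 21 tested. It was at 0.959, 5.22 and 10.0 CPM in the controls and at 8.48 to 86.9 CPM with crRNA-13 (median 27.6 CPM), and only replicate 6 fell below the highest control. It rose by 2.95 (SE 0.69, edgeR adjusted p = 0.0254), and the call was lost without EGFP-KASH only replicate 2. The median of the list was 0.70, with 20 of 21 members above 0, 10 at an unadjusted p under 0.05 in the direction of a rise and 2 without overlap. Of all 21768 tested genes, 11968 were above 0. Among them 0.62% were called higher, 7.61% had such a p and 0.854% lay wholly higher with crRNA-13. Tap1, a subunit of the peptide transporter, and the heavy chain gene H2-D1 had log2 fold changes of 2.50 and 1.14 and missed the threshold (edgeR adjusted p = 0.0706 and 0.0714). The list summed to 141 to 164 CPM in the controls and to 141 to 418 CPM with crRNA-13.

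Sensors of nucleic acid had a lower median, 0.04 over 19 tested members, with 11 above 0 (11968 of all 21768 tested genes) and none called. At an unadjusted p under 0.05 in the direction of a rise there were 5, where 7.61% of all tested genes were. Ddx58 (the gene of RIG-I), Ifih1, Dhx58, Zbp1 and Eif2ak2 are also in the interferon list. In C57BL/6J the median of the sensors was 0.82, with 3 called higher. MDA5 (Ifih1), which binds long double-stranded RNA, was at 0.559, 2.84 and 1.33 CPM against 1.79 to 14.9 CPM (log2 fold change 1.74, edgeR adjusted p = 0.104). Adar, the enzyme that edits double-stranded RNA, was at 170 to 189 CPM against 186 to 231 CPM (log2 fold change 0.20, edgeR adjusted p = 0.0627). The adaptor and relay genes Mavs, Sting1, Tbk1 and Irf3, and the DNA sensor gene Cgas, had log2 fold changes between -0.35 and 0.04.

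The same contrast in C57BL/6J mice compares none of these 9 libraries. It was fitted in the same model, so the factors and the estimate of spread are shared with them. There, 73 genes were called higher (0.335% of those tested) and 15 lower (0.0689%) with the factors, and none without them. Of the interferon-stimulated genes 25 of 48 were called higher, with a median log2 fold change of 3.28, and the summed level was 335 to 2858 CPM with crRNA-13 and 154 to 282 CPM with EGFP-KASH only. The genes called higher in both genotypes numbered 9, that is 6.67% of the 135 and 12.3% of the 73. They were AU020206, Gbp7, Ddx60, Oasl2, Nlrc5, Iigp1, Ifi35, Parp10 and Trim12a, of which the last 2 were not selected by the naming rule and are given because they complete the set. No gene was called lower in both. Parp10 is an ADP-ribosyltransferase and Trim12a a member of the tripartite motif family that holds many antiviral proteins. Parp10 was at 0.24, 0.252 and 0.364 CPM in the C9-BACexp controls and at 0.498 to 8.25 CPM with crRNA-13, without overlap, and at 0.127 to 0.922 CPM against 1.68 to 19.4 CPM in C57BL/6J.

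All 9 were above 0 in C9-BACexp under each of 25 other settings, with between 0 and 9 of them called. The 9 were chosen by their calls, and these settings refit mostly the same libraries. Nearly all of the 36 named called genes likewise kept their sign, and the 2 that reversed (V2 and Rbm48) did so only without EGFP-KASH only replicate 2. Without that library the log2 fold changes of the 9 were 0.49 to 3.94, 7 of them had an unadjusted p under 0.05 and none was called. Of all the genes called in C9-BACexp, these 9 included, the fitted change had the same sign in C57BL/6J for 48.5%, against 48.3% of all tested genes. Of the interferon-stimulated genes, 47 of 48 members were above 0 in C9-BACexp and 48 of 48 in C57BL/6J. Of all 21768 tested genes, 11968 and 11412 were. The members were measured in the same few libraries and are not independent of one another.

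**Figure D3:**
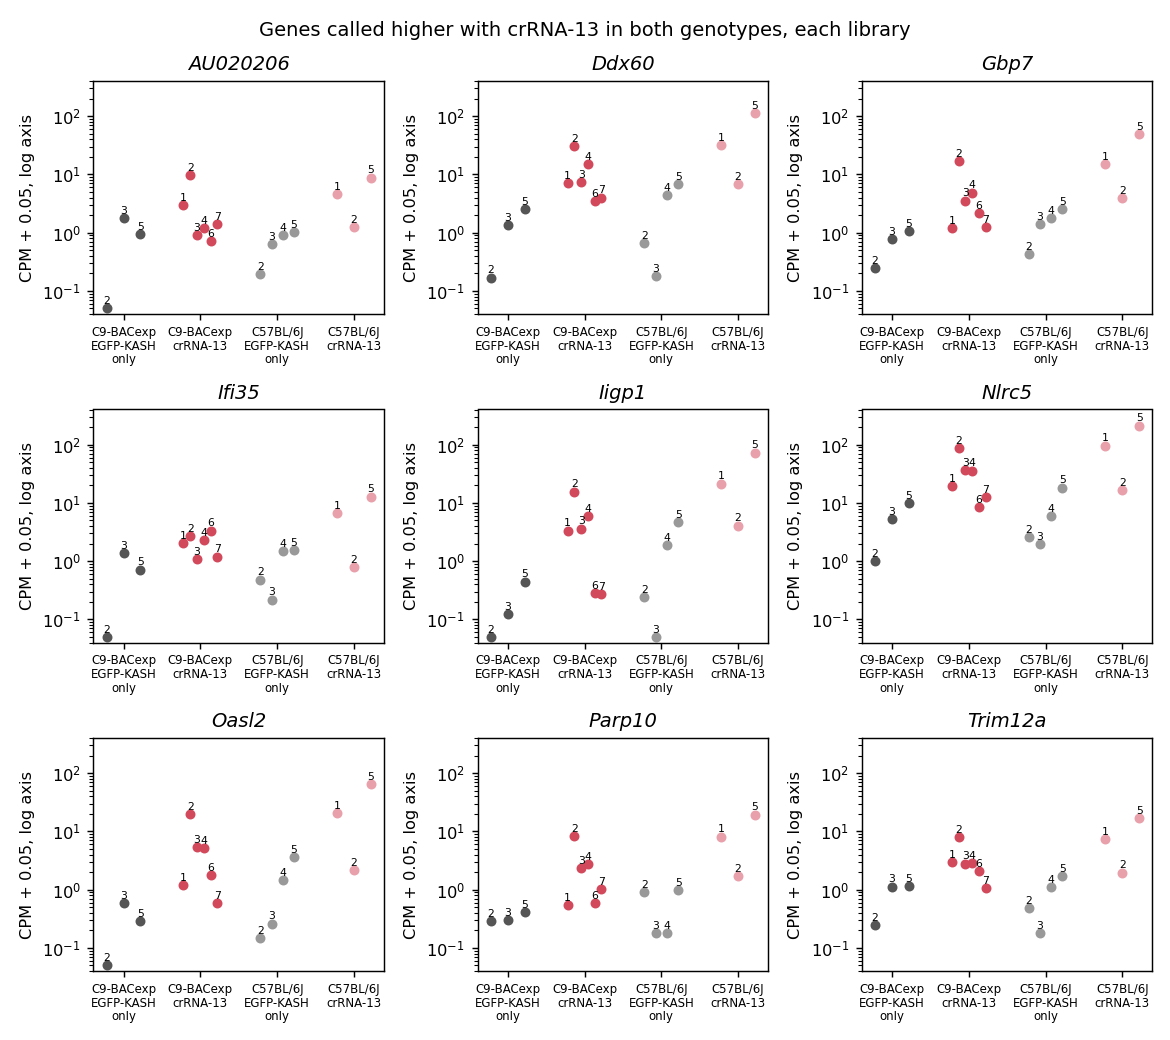
CPM + 0.05 (log axis) of the 9 genes called higher with crRNA-13 in both genotypes, 1 point per library and 1 panel per gene. In C9-BACexp the crRNA-13 libraries spread from the level of the controls to a single high library, for Nlrc5 from 8.48 to 86.9 CPM, and in C57BL/6J from 16.7 to 212 CPM.

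The difference between the genotypes was tested as an interaction. Of 21768 genes, 1 was called (0.00459%), the predicted gene Gm31298, named because it was the only one, with an interaction of 4.25 on the log2 scale (edgeR adjusted p = 0.00345). It was at a mean of 0.559 CPM with EGFP-KASH only and 2.07 CPM with crRNA-13 in C9-BACexp, and at 1.87 and 0.67 CPM in C57BL/6J. No interferon-stimulated gene was called in this test. Their median interaction was -1.45, towards a smaller difference in C9-BACexp, and 17 of the 48 had an unadjusted p under 0.05 in that direction, against 5.32% of all tested genes.

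The NTG mice, which had effector and guide vector but no targeting sequence, are given side by side, since each comparison with them shares libraries with the main one. Between NTG and EGFP-KASH only, 7 genes were called (0.0322%) with p adjusted within the comparison, the adjustment that gave 8 calls between crRNA-13 and EGFP-KASH only. There the median of the interferon-stimulated genes was 0.30. Between crRNA-13 and NTG, with p adjusted over the 5 comparisons as for the 198 genes, 53 genes were called higher (0.243%) and 52 lower, and that median was 1.08 with 2 members called. Ddx60 was at 1.32 to 5.66 CPM with NTG and Nlrc5 at 5.64 to 16.6 CPM, ranges that lie between or across those of the other groups. Log2 fold changes of crRNA-13 minus NTG were 1.77 for Ddx60 and 1.76 for Nlrc5 (edgeR adjusted p = 0.0584 and 0.0594).

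Among the other rises, several were small changes in genes of moderate level. Rps6ka4, a nuclear kinase that acts on histone H3 and CREB, had the smallest p of all called rises above 1 CPM. It was at 5.47, 15.04 and 16.1 CPM in the controls and at 13.9 to 26.4 CPM with crRNA-13 (log2 fold change 0.72, SE 0.1, edgeR adjusted p = 0.000604). The groups overlapped, and the NTG libraries were at 16.2 to 18.9 CPM. Its log2 fold change was 0.25, and its call lost, without EGFP-KASH only replicate 2. Rbm48, a component of the minor spliceosome, was at 1.68, 9.57 and 7.64 CPM against 6.89 to 9.68 CPM, and its log2 fold change of 0.72 became -0.0087 without EGFP-KASH only replicate 2.

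The low value of that library recurred. Sh3bgrl3 (0.839 CPM in it, 5.54 and 4.55 CPM in the other controls, 4.82 to 9.76 CPM with crRNA-13), the tolloid-like protease gene Tll1 (0.879, 8.46 and 7.82 CPM against 3.09 to 12.4 CPM) and Prr22 (0, 1.04 and 1.15 CPM against 1.19 to 1.89 CPM) had log2 fold changes of 1.23, 1.11 and 2.70. Cmbl, a hydrolase, and Flnc, the actin cross-linker filamin C, were at 0 CPM in it as well and had log2 fold changes of 3.18 and 2.76. Of these, the groups of Prr22 alone did not overlap. None of these 5 remained called without that library.

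Single members of other lists were called higher, as were 0.62% of all tested genes. Ncan, the chondroitin sulfate proteoglycan of perineuronal nets, was at 108, 120 and 131 CPM in the controls and at 128 to 216 CPM with crRNA-13 (log2 fold change 0.34, SE 0.067, edgeR adjusted p = 0.00715), with overlap. It was called without EGFP-KASH only replicate 2 and lost its call without crRNA-13 replicate 2, its highest library (0.23). Tfe3, which switches on genes of lysosomes and autophagy, was at 9.87, 16.1 and 16.2 CPM against 16.6 to 21.3 CPM without overlap (log2 fold change 0.47, edgeR adjusted p = 0.0244), the 1 called member of 50 autophagy genes. Gadd45b, an immediate early gene, was at 0, 1.04 and 1.67 CPM against 1.53 to 3.23 CPM (log2 fold change 2.56, edgeR adjusted p = 0.00655). Sdhb of respiratory complex II and Uqcr11 of complex III had log2 fold changes of 0.45 and 1.53, the 2 called of 72 respiratory chain genes. The calls of Tfe3, Gadd45b, Sdhb and Uqcr11 were lost without EGFP-KASH only replicate 2, where the log2 fold changes of Tfe3, Gadd45b and Uqcr11 were 0.25, 0.55 and 0.65.

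Falls were spread over unrelated functions. Ism1, which encodes the secreted protein isthmin, had the largest, at 13.2, 9.29 and 3.58 CPM in the controls and 1.13 to 4.94 CPM with crRNA-13 (log2 fold change -1.54, SE 0.36, edgeR adjusted p = 0.0249). The groups overlapped, since EGFP-KASH only replicate 5 lay within the crRNA-13 range. Maob, the monoamine oxidase of glia and serotonergic neurons, was at 14.5, 5.9 and 5.43 CPM against 2.02 to 6.48 CPM (log2 fold change -1.21, edgeR adjusted p = 0.0435) and Cdca7, a chromatin factor, at 3.36, 1.62 and 1.33 CPM against 0.366 to 1.39 CPM (-1.23). Both overlapped, in replicate 4 of the crRNA-13 group.

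Falls without overlap were found for the zinc finger gene Zfp558, Ankub1, the mitochondrial ribosomal protein gene Mrps16, the checkpoint clamp gene Rad9b, Tex9 and Ints9. Zfp558 was at 2.88, 3.82 and 3.79 CPM in the controls and at 0.398 to 2.29 CPM with crRNA-13, a fall by 1.44 (SE 0.34, edgeR adjusted p = 0.0261). It was called without EGFP-KASH only replicate 2 (-1.55) and lost its call without EGFP-KASH only replicate 3 or 5 or crRNA-13 replicate 1. Rad9b was at 15.7, 9.97 and 11.8 CPM against 4.76 to 8.69 CPM (-0.91, edgeR adjusted p = 0.0309). Ints9, a subunit of the Integrator complex that processes small nuclear RNAs, was at 51.0, 37.6 and 37.6 CPM against 27.7 to 35.4 CPM (-0.43, SE 0.089, edgeR adjusted p = 0.0105). In C57BL/6J none of these 6 was called lower, and their log2 fold changes there were -0.44 to 0.10.

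The remaining named falls were Hk1os (-1.29), Fam151b (-0.94), the AP-3 adaptor subunit gene Ap3s1 (-0.49), the phosphatase gene Ctdspl2 (-0.42) and Eif2d (-0.31), an initiation factor for non-canonical start sites, all with overlapping groups. In Hk1os, which lies opposite hexokinase 1, reads could not be told from those of Hk1 unless counted by strand, and EGFP-KASH only replicate 2 held 19.0 CPM where the other 8 libraries held 0.989 to 6.37 CPM.

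**Figure D4:**
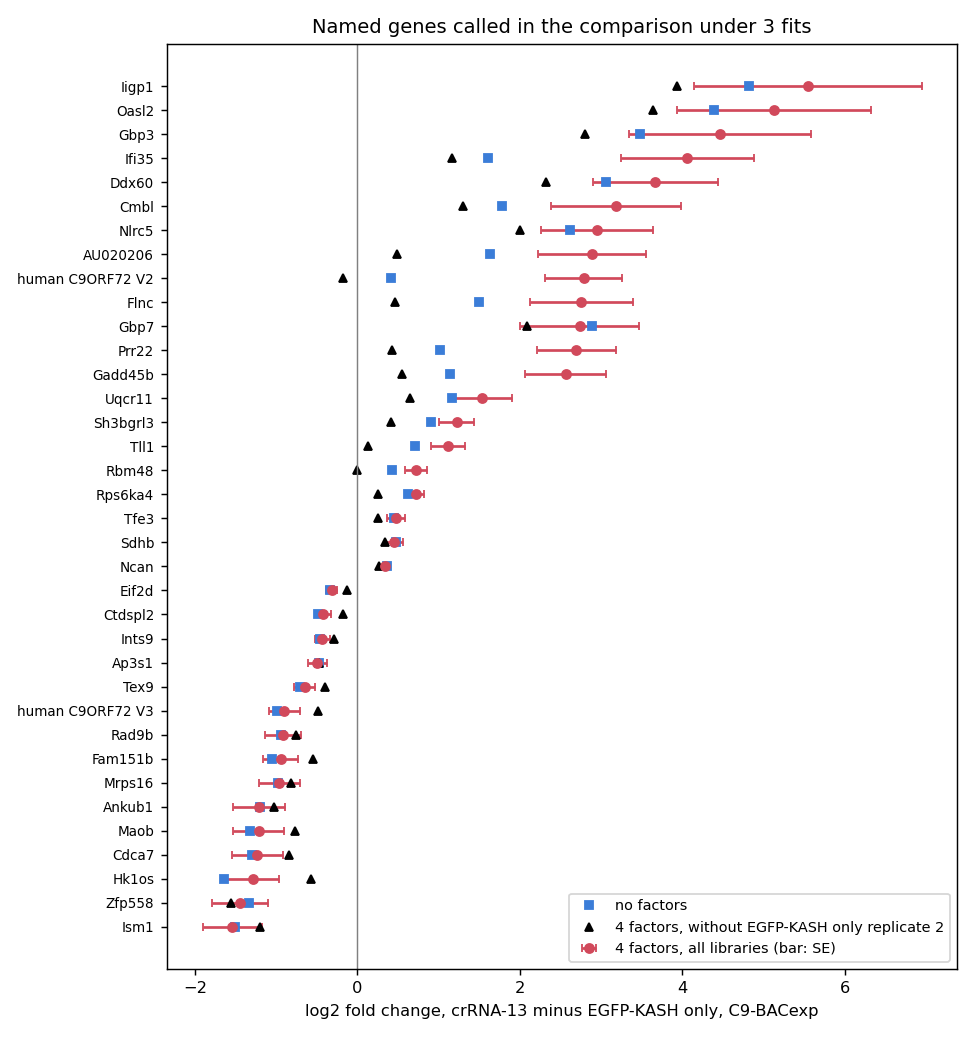
Log2 fold changes (crRNA-13 minus EGFP-KASH only, C9-BACexp) of the named genes called in the comparison, under 3 fits. All genes shown except V2 and Rbm48 keep their direction in all 3, among them Ddx60 (3.67). V2 and Rbm48 cross 0 when EGFP-KASH only replicate 2 is left out.

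The genes called with EGFP-KASH only replicate 2 left out, listed here after their values were seen, show what the other 2 controls carry. Of the 16 shared with the 198, 5 rose: Blvrb, Hdac4, Ncan, Spats2 and the predicted gene Gm39362. Blvrb, biliverdin reductase B of heme breakdown, was at 1.27, 0.575 and 0.734 CPM in the controls and at 2.42 to 3.99 CPM with crRNA-13, without overlap, and its log2 fold change was 1.89 with all libraries and 2.20 without that one. Hdac4, a histone deacetylase that shuttles with neuronal activity, had log2 fold changes of 0.30 and 0.27. Among the 11 shared falls, Ngly1, the enzyme that strips N-glycans from misfolded proteins, was at 32.6, 41.9 and 36.9 CPM against 23.2 to 30.4 CPM.

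The 3 genes called without the factors were all lower and all predicted genes, named here because they complete that count. Gm31137 was at 0.519, 2.99 and 15.6 CPM in the controls and at 0.0366 to 0.271 CPM with crRNA-13, without overlap (log2 fold change -5.08 without factors, edgeR adjusted p = 0.00305). Gm46165 was at 478, 0.288 and 2.06 CPM against 0.0638 to 0.55 CPM, and Gm36631 at 72.6, 2.99 and 1.15 CPM against 0.415 to 2.79 CPM. In each a single control held most of the signal. With NTG, Gm31137 was at 0.0823 to 0.605 CPM, and in the C57BL/6J controls at 0.19 to 0.296 CPM.

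Markers of cell types were mostly near the background median. No marker of excitatory, upper-layer, deep-layer, inhibitory or striatal projection neurons, astrocytes, microglia, oligodendrocyte precursors or endothelial and mural cells was called, and the medians of these lists were -0.06 to 0.43. The striatal markers Adora2a and Six3 were at 0 in EGFP-KASH only replicate 2, and their fitted values carry no estimate of size. The endothelial gene Pecam1 was at 0.28, 0.756 and 1.12 CPM against 1.37 to 3.02 CPM without overlap (edgeR adjusted p = 0.0748). Of 26 markers of infiltrating immune cells, 7 had enough counts to be tested and none was called. The T cell chemokine gene Ccl5 had no count in any control and at most 0.54 CPM with crRNA-13.

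Oligodendrocyte markers differed widely between libraries. They summed to 2408 to 3543 CPM in the controls, to 7847 CPM in crRNA-13 replicate 1, to 4184 CPM in replicate 2 and to 1164 to 1982 CPM in the other 4. None of the 30 was called and their median log2 fold change was -0.19. Replicates 1 and 2 were the highest crRNA-13 libraries for this list, so leaving them out lowers the level of that group. Without replicate 1, 5 were called lower (Aspa, Gjc3, Cnp, Plekhh1 and Anln) with a median of -0.53, where 0.551% of all tested genes were. Without replicate 2 alone, 0 were called, with a median of -0.36. Without replicates 1 and 2, a setting chosen after seeing the data, 12 were called lower with a median of -0.82. Of all tested genes, 0.793% were called lower there. The same contrast in mice without the transgene had 29 of 30 markers above 0, a median of 0.50 and 0 called. The myelin lipid enzyme gene Aspa was at 30.4 to 45.9 CPM in the controls and at 7.29 to 62.4 CPM with crRNA-13 (edgeR adjusted p = 0.189). Cytosolic ribosomal protein genes were also highest in replicate 1, with a sum of 940 CPM where the other 5 lay at 518 to 681 CPM and the controls at 573 to 610 CPM.

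Reactive and stress programs gave few calls. Reactive astrocyte genes had a median of 0.55 over 17 tested members and complement and acute-phase genes one of 0.29 over 16, without a call in either. C4b was at 36.2, 49.2 and 72.1 CPM in the controls and at 33.4 to 420 CPM with crRNA-13 (log2 fold change 1.37, edgeR adjusted p = 0.163), whereas in C57BL/6J it was called higher, by 3.41. Immediate early genes, which report recent neuronal activity, had a median of 0.43 with 27 of 29 above 0, and their sum was 1791 CPM in crRNA-13 replicate 2, 557 to 1016 CPM in the other 5 and 537 to 849 CPM in the controls. Medians of the lists for p53 and DNA damage, the unfolded protein and integrated stress response, and heat shock were 0.08, 0.06 and -0.08, again without a call.

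Lists of processes tied to C9ORF72 disease had medians near 0. Genes linked to amyotrophic lateral sclerosis or frontotemporal dementia had a median of 0.03 over 35 tested members, RNA splicing genes one of -0.07 over 67 and autophagy genes one of 0.06 over 50. In the first 2 lists no gene was called. Of the splicing genes, 18 of 67 were above 0, where 11968 of all 21768 tested genes were. Among the splicing genes, 8 had an unadjusted p under 0.05 in the direction of a fall (1 without the factors), where 4.51% of all tested genes did. The splicing regulator Elavl3 was at 179, 211 and 214 CPM in the controls and at 193 to 264 CPM with crRNA-13 (edgeR adjusted p = 0.0652), and Hnrnpc at 56.4 to 69.2 CPM against 48.3 to 58.2 CPM (edgeR adjusted p = 0.0983). Synaptic vesicle genes, ion channels and receptors, and axon guidance genes had medians of 0.10, 0.03 and 0.01, with no call among 56, 96 and 56 members.

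**Figure D5:**
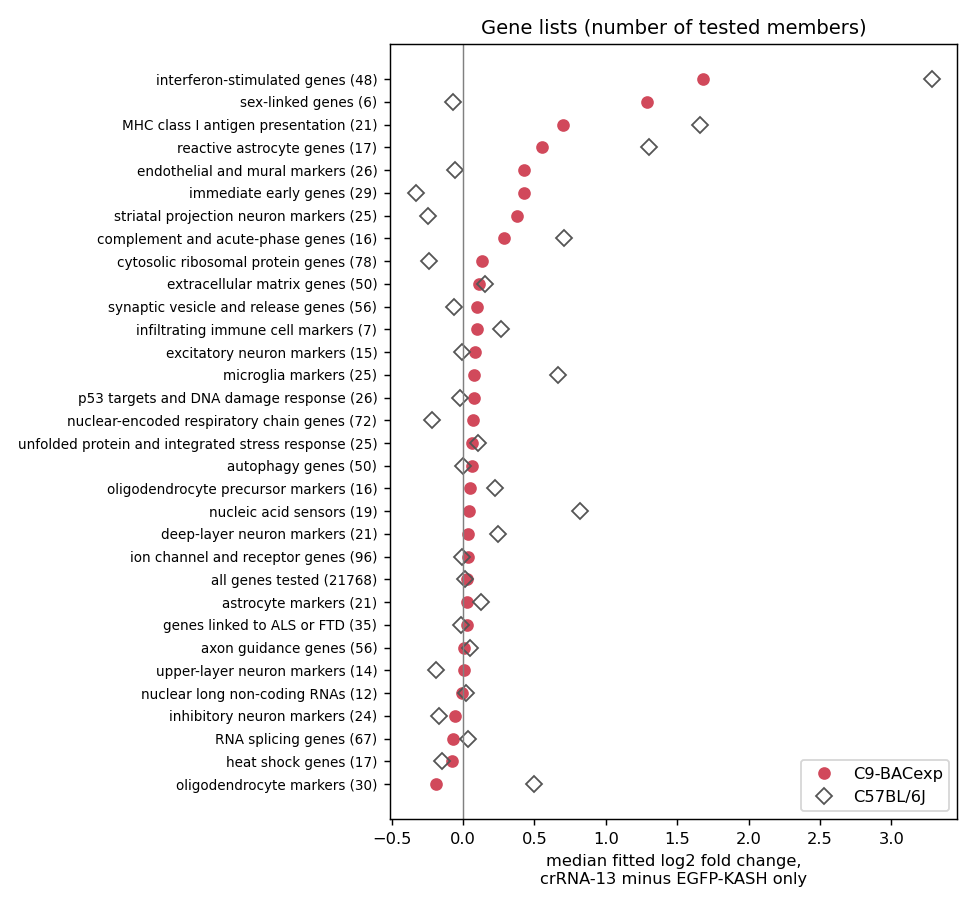
Median fitted log2 fold change (crRNA-13 minus EGFP-KASH only) of the tested members of each gene list, with the number of members, in C9-BACexp (filled circles) and C57BL/6J (open diamonds). Interferon-stimulated genes lie at 1.68 and 3.28, MHC class I genes at 0.70 and 1.66, and most other lists near the median of all genes, 0.03 in C9-BACexp.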

How the data were processed

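RNA-seq was made from EGFP-KASH+ nuclei, sorted from motor cortex, with 1 mouse for each of the 27 libraries. The deposited values are expected counts per gene, which the authors estimated with Salmon 1.10.0 against an index of mouse transcripts, both spliced and not, with 3 human C9ORF72 transcripts and EGFP-KASH added, and summarised with tximport in R 4.3.1 as length-scaled TPM. Estimated reads of transcripts that share sequence are divided by the model, so related genes and the C9ORF72 variants can exchange counts, and unspliced RNA counts towards its gene. The counts were not normalized between libraries. Groups were taken from the labels, and 0 columns were left without a label.

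After rounding, edgeR 4.0.16 (R 4.3.3) was used for TMM scaling, for filtering by filterByExpr with a minimum count of 10 and a minimum total of 15, and for the robust quasi-likelihood F test of each gene in 1 model of 6 groups over all 27 libraries with 4 factors of unwanted variation taken from residuals, an assumption, since the study names RUVSeq but not the method. P-values of the main comparison were adjusted over 5 comparisons together, and those in C57BL/6J, of NTG against EGFP-KASH only and of the interaction within each. Genes past a 1.2-fold difference whose adjusted p was under 0.05 were called. Human transcripts, EGFP-KASH and mouse C9orf72 were compared by exact two-sided permutation tests of mean log2(CPM + 0.5), adjusted over 6 quantities. Lists, 31 in number, are described by counts and medians without a set test. Only the edgeR fit, with and without the 4 factors, was tested on simulated counts. These held no unwanted variation and no aberrant library, so they could not test how far the factors or a single library shape the calls. The alternatives were other factors, tools (limma 3.58.1, DESeq2 1.42.0), libraries, filters, normalizations, a replicate block and Xist as a covariate.

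Named are the 10 largest rises and falls and the 5 of each with the smallest p of called genes averaging 1 CPM or more, predicted genes excepted, from each list up to 4 called members with the smallest p (the 2 with the smallest p where none was called, for their values) and the C9ORF72 genes. The members and lists were chosen with earlier results of these data known. Starts and sequences were read from GRCm39 and its GENCODE annotation, the build of the authors' decoy genome. The sequence of crRNA-13 is not used here.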

Additional observations from a re-analysis of the deposited data

Results flagged for a closer look

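Each of 41 genes and transcripts, most of them called above, was tested for a single distant value among the 6 C9-BACexp crRNA-13 libraries. Such a value was found in 8. The limit used gives about 1 in 20 by chance for 1 set of values. The 41 share the same libraries, so that rate does not give the number expected here. In 6 of the 8 the distant library was C9-BACexp crRNA-13 replicate 2. Its levels were 15.6 CPM for Iigp1 (next highest 5.84 CPM), 19.9 CPM for Oasl2 (5.35 CPM), 86.9 CPM for Nlrc5 (36.5 CPM), 9.64 CPM for AU020206 (2.89 CPM), 16.6 CPM for Gbp7 (4.81 CPM) and 216 CPM for Ncan (159 CPM). In the other 2 it was C9-BACexp crRNA-13 replicate 1, at 6.37 CPM for Hk1os (2.97 CPM) and 25.7 CPM for mouse C9orf72 (19.8 CPM).

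The effect of crRNA-13 against EGFP-KASH only differed between the genotypes in 1 gene, Gm31298, with an interaction of 4.25 on the log2 scale (edgeR adjusted p = 0.00345).

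Human C9ORF72 counts appeared in a C57BL/6J mouse, which lacks the transgene. The library C57BL/6J crRNA-13 replicate 5 held 4 counts of V1 and 12 counts of V2, where the other 11 C57BL/6J libraries held 0 of either. Its source was not tested.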

How the results depend on the processing

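The 135 genes called higher and 63 called lower became 0 and 3 without the factors, 3 and 9 with 2 factors, 0 and 0 with limma-trend without factors, 18 and 21 with DESeq2 without factors, 402 and 145 with DESeq2 and the 4 factors, 0 and 1 with the 9 libraries alone, 3 and 4 with the 15 C9-BACexp libraries, 4 and 4 adjusted within the comparison, and 206 and 170 without crRNA-13 libraries 1 and 2 (chosen after seeing the data). Leaving out 1 library gave 7 to 200 and 40 to 119, the fewest rises without EGFP-KASH only replicate 2. In C57BL/6J the 73 and 15 became 0 and 0 without the factors, and 22 to 235 and 2 to 217 with 1 library left out. Also without the factors, the interaction called 0 genes higher, crRNA-13 against NTG 0 and 0 of 53 and 52, and NTG against EGFP-KASH only 0 of 5 higher. Where EGFP-KASH only is left with 2 or fewer libraries, the spread is shared with the other groups.

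With 1 library left out, the permutation difference ranged from -0.41 to 0.052 for V1 (0.031 without EGFP-KASH only replicate 3, 0.052 without replicate 5), -0.18 to 3.11 for V2, -1.19 to -0.49 for V3 and -0.29 to -0.15 for their sum. In the model, the log2 difference ranged from -0.17 to 4.47 for V2 and from -0.0087 to 1.16 for Rbm48, lowest without EGFP-KASH only replicate 2, where both reversed, and highest without replicate 3. Of the 36 named called genes, 0 remained called without the factors, 2 without that library, 32 with limma-trend and the factors and 36 with DESeq2 and the factors.

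Only replicate numbers 2 and 3 recur in both groups, with correlations of deviations of 0.016 and -0.031, so the numbers were not taken as pairs. With the replicate block and the 4 factors 89 genes were called higher and 42 lower, and with the replicate block and no factors 0 and 0. Genes under about 1 CPM rest on few counts, and 3 control libraries limit every p.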
